A study of Drosophila melanogaster with 73 samples.

Results

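The insertions described here are the individual copies of transposable elements that had a row of their own in the expression table of Drosophila fat body and whose median level over the 50 libraries of days 4-5 was above 1 TPM (the share of all transcripts that comes from a feature, corrected for its length and scaled to a fixed total). Of 5416 insertions in the table, 145 met this rule, 2503 were above 0 TPM in at least 1 of the 73 libraries and 2913 were listed at 0 in every library. These insertions were chosen by their measured level on days 4-5, so their levels are given as a description with no test. Temperature and time of day within days 4-5 were not part of the rule, but the libraries of days 4-5 are 1 side of each comparison between periods, so values between periods are given as a description too. An insertion is named by its family and a copy number, so that copia{}387 is 1 copy of the copia element. Copies and positions are those of the reference assembly, and whether the flies sampled carry each of them was not examined.

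Transposable elements are DNA segments that move or copy themselves within a genome. LTR retrotransposons (copia, gypsy, mdg1, GATE and others) are copied through an RNA that carries long terminal repeats, non-LTR retrotransposons (BS, Doc, F, X) are copied through an RNA at the target site, and DNA transposons (1360, transib, hobo, written H, and the short INE-1 copies) move as DNA. Piwi-interacting RNAs hold these elements down in the fly gonad and its support cells, and the siRNA pathway does so in the rest of the body. RNA read from an insertion can also be a stretch of a host gene's transcript that crosses the copy.

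The flies were Iso31 females, an isogenic line with a white mutant background, kept with males for about 3 days and then entrained to a 12:12 light and dark cycle at 25 °C on a sucrose and yeast diet. They were then moved to 18 °C or held at 25 °C, and abdominal fat body attached to the epidermis was taken from pools of about 10 animals a library. The 4 groups were 25 °C on days 4-5 (26 libraries), 18 °C on days 4-5 (24), 25 °C on days 1-2 (5) and 18 °C on days 1-2 (18), sampled by zeitgeber time (ZT, hours after lights on). Libraries of days 4-5 carried replicate number 1 (19 at each temperature) or 2 (7 at 25 °C and 5 at 18 °C), those of days 1-2 carried number 1, and nothing in the labels ties the same number at both temperatures to shared flies.

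All 9 fat body markers had a median above 1 TPM in every group. Carry-over from other tissue varied widely between libraries: the summed eggshell markers had a median of 30.8 TPM at 25 °C and 157 TPM at 18 °C on days 4-5, with a highest value of 13882 TPM, and 1434 TPM at 25 °C on days 1-2. The summed germline markers had medians of 100.7, 148, 262 and 163 TPM in the groups 25 °C days 4-5, 18 °C days 4-5, 25 °C days 1-2 and 18 °C days 1-2. In 26 of the 73 libraries the eggshell or gut sum passed 1000 TPM, 5 and 11 of them at 25 °C and 18 °C on days 4-5 and 3 and 7 on days 1-2. The main counts are also given without these libraries, a check added after the data were seen. Of 15 eggshell markers, 4 had a median of 0 TPM at 25 °C on days 4-5 and 1 at 18 °C. Markers of other attached cells were lower at 18 °C in 4 of 6 cases for hemocytes and in 3 of 4 tested for muscle and for oenocytes. The part of these tissues in the results below was not tested.

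The expressed insertions were few, low and unevenly spread over families. They came from 51 families, of which INE-1 gave 39 members, 1360 gave 11, copia and Cr1a 6 each, 3S18 5 and Tc1-2 4, while 24 families gave a single member. Large families could lack members: roo had 136 annotated insertions and no member. INE-1 had 2234 annotated insertions, 1.75% of them members, against 17.1% of the 35 copia insertions. DNA transposons made up 68 members, LTR retrotransposons 43 and non-LTR retrotransposons 34. Members had a median length of 886 bases (range 252 to 8550) against 328 bases over all insertions, and the median level was above 10 TPM for 13, above 5 TPM for 30 and below 2 TPM for 54 of them.

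By position, the small, largely heterochromatic chromosome 4 held 47 members, 32.4% of them, against 10.4% of all annotated insertions. By the annotation, 20 members overlapped an exon of a gene (13.8% against 7.13% of all insertions), 76 lay in an intron (52.4% against 42.9%) and 49 were intergenic (33.8% of members, against 2708 of the 5414 annotated insertions). Several sat in the same host: 6 members overlapped AGO3, which encodes a Piwi-family Argonaute protein, 4 overlapped Atf6, a stress-responsive transcription factor gene, and 3 each overlapped CaMKI, PMCA, ABCD and unc-13. Members of 1 host share its transcript and are not independent of each other, and 1 pair, BS3{}2538 and X{}624, shared bases. Some intergenic members lay side by side, among them X{}4240, Cr1a{}3375 and Cr1a{}3376 near CG17508. So did H{}1735 and H{}1737, and GATE{}1672 and gypsy8{}3747. Such neighbours need not be independent either.

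The 8 highest members had medians over days 4-5 of 23.3 TPM (copia{}387), 19.9 TPM (accord{}818), 18.1 TPM (INE-1{}5914), 17.9 TPM (1731{}pyd[1272]), 16.9 TPM (rooA{}1506), 16.1 TPM (BS{}358), 15.7 TPM (INE-1{}5918) and 15.6 TPM (Doc{}CHKov1[Doc1420]). They included full-length and short copies: copia{}387 is an intergenic copy of 5149 bases (BDGP6, chromosome 2L, 16141218 to 16146366), whereas INE-1{}5914 and INE-1{}5918 are copies of 470 and 461 bases in an intron of CaMKI on chromosome 4 (448779 to 449248 and 450697 to 451157). CaMKI, a calcium-dependent kinase gene, had itself a median of 245 TPM at 25 °C and 291 TPM at 18 °C. At the other end, HeT-A{}6270 (1.02 TPM) and INE-1{}5640 (1.00 TPM) were just inside the threshold, and INE-1{}5811 (1.0 TPM) and Xanthias{}6297 (0.975 TPM) were just outside it. The median was above 1 TPM at both temperatures for 123 members, at 25 °C alone for 10 and at 18 °C alone for 12.

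**Figure D1:**
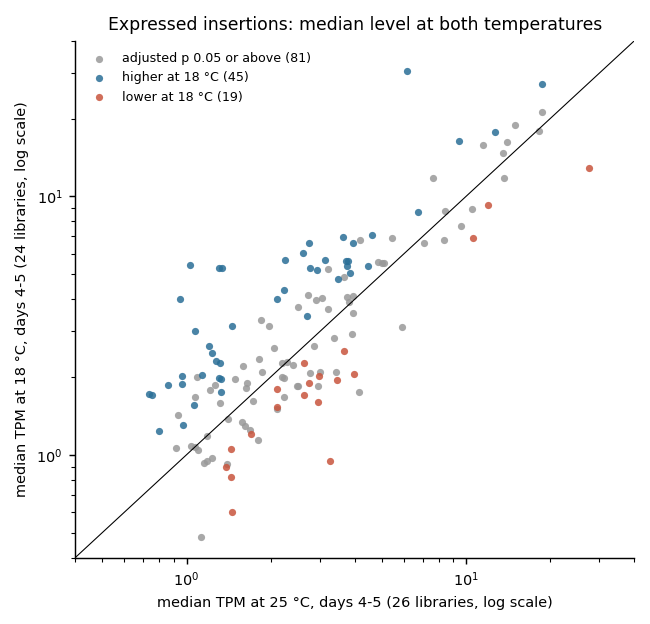
Median TPM of the 145 expressed insertions at 25 °C (x axis, 26 libraries) and at 18 °C (y axis, 24 libraries) on days 4-5, both on a log scale, with the line of equal levels. Members with a median of 0 TPM at either temperature, such as 1360{}5894 at 18 °C, are not drawn on these axes. Blue points were higher and red points lower at 18 °C in the test (45 and 19), and most points lie near the line, with BS{}358 farthest above it among the abundant insertions.

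Days 4-5 at both temperatures ask how the settled level of an insertion differs between 18 °C and 25 °C. Of the 145 members, 45 were higher and 19 lower at 18 °C, and 81 did not pass the test. Over all 8972 features tested, 48.5% passed, 33.7% higher and 14.8% lower, so the members' shares (44.1%, 31.0% and 13.1%) were near those of all features. The members' median difference was 0.10 on the log2(TPM + 1) scale, against 0.09 over all features, and it was 0.20 in replicate 1 alone and -0.07 in replicate 2 alone (63 of 145 above 0). With TPM rescaled by median-ratio factors the members split 41 higher and 20 lower, while all features moved from 3021 higher and 1329 lower to 2388 and 1981. Without the libraries with high eggshell or gut sums, 41 members were higher and 13 lower, against 2048 and 1456 of all features. In replicate 1 alone 49 members were higher and 18 lower, against 2889 and 1504 of all features. In the 12 libraries of replicate 2 alone 5 members were higher and 4 lower, and over all features 343 passed. The floor was passed at 18 °C alone by 12 members, of which 8 were called higher, and at 25 °C alone by 10, of which 4 were called lower, and these entered through the group in which they were high. Of the 123 members above the floor at both temperatures, 37 were higher and 15 lower. In bulk tissue, fewer cells that carry an RNA and less of it per cell cannot be told apart.

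Large differences were found for a few insertions. The difference reached at least 1 on the log2 scale for 6 members that were higher at 18 °C, against 1.38% of all features, and for no member that was lower. The libraries of the temperatures did not overlap for 2 members, mdg1{}2516 and X{}4240, both higher at 18 °C, whereas 0.156% of all features were higher and 0.111% lower with no overlap. In the 24 pairs of libraries matched for replicate number, day and ZT, 4 members were higher at 18 °C in every pair (BS{}358, X{}4240, mdg1{}2516 and Cr1a{}3376, the last named after its values were seen), as were 1.1% of all features. X{}4240 and Cr1a{}3376 lie side by side near CG17508 and need not be independent. The medians of mdg1{}2516 and Cr1a{}3376 at 25 °C were under the floor, so both are members through their 18 °C libraries.

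BS{}358 is a non-LTR retrotransposon copy of 2327 bases on chromosome 2L (13242015 to 13244341) that lies between exons of the antisense RNA gene asRNA:CR45330 on the same strand and shares 7 bases with an exon of asRNA:CR46479 on the other strand. Its level on days 4-5 was 2.62 to 18.1 TPM (median 6.16) at 25 °C and 15.3 to 46.0 TPM (median 30.4) at 18 °C. The difference was 1.96 ± 0.15 (log2 scale, SE, adjusted p = 1.56e-15), the largest of the members, and it was 1.81 in replicate 1 and 2.31 in replicate 2. asRNA:CR46479, which overlaps it on the opposite strand, was higher as well, from a median of 4.63 TPM to 18.4 TPM, a log2 difference of 1.72 ± 0.14 (adjusted p = 2.33e-14), and asRNA:CR45330 had a median of 0 TPM at both temperatures. The libraries were not stranded, so reads of the copy and of an antisense neighbour could not be told apart.

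INE-1{}2496 and INE-1{}2091 are short DNA transposon copies beside genes. INE-1{}2496, 459 bases on chromosome 2L (116518 to 116976), lies in ND-15, a subunit gene of mitochondrial complex I, and shares 7 bases with an exon of CG4822 on the opposite strand. It had a median of 1.03 TPM (0 to 2.66) at 25 °C and 5.43 TPM (0 to 10.8) at 18 °C, a difference of 1.51 ± 0.17 (adjusted p = 8.48e-10) that was higher in 22 of 24 pairs. ND-15 differed by -0.01 ± 0.05 (adjusted p = 0.848) and CG4822 by 0.20 ± 0.07 (adjusted p = 0.0133). CG13694, which lies 30 bases from the copy and was picked after its values were seen, was higher too, from a median of 0.835 TPM to 4.22 TPM (1.42 ± 0.12, adjusted p = 1.92e-13).

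INE-1{}2091, 403 bases on chromosome 3L (21736946 to 21737348) and 358 bases from CG14567, had medians of 1.31 TPM (0 to 4.60) and 5.26 TPM (0 to 11.6) at 25 °C and 18 °C, a difference of 1.36 ± 0.24 (adjusted p = 5.22e-06). CG14567 itself, at medians of 126 and 188 TPM, was higher by 0.73 ± 0.09 (adjusted p = 2.51e-09). Both INE-1 differences lost their call in replicate 2 alone (0.62, adjusted p = 0.428 for INE-1{}2496, and 0.86, adjusted p = 0.271 for INE-1{}2091).

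The pair without overlap lay between genes on arm 2R. X{}4240, a non-LTR copy of 893 bases that is 3209 bases from CG17508, had 0.43 to 2.44 TPM (median 1.33) at 25 °C and 2.63 to 8.72 TPM (median 5.28) at 18 °C, a difference of 1.33 ± 0.10 (adjusted p = 5.98e-16). CG17508 fell by 0.14 ± 0.03 (adjusted p = 5.33e-04). mdg1{}2516, an LTR retrotransposon fragment of 845 bases that is 750 bases from Atf6, had 0 to 2.03 TPM (median 0.945) at 25 °C and 2.92 to 6.56 TPM (median 3.99) at 18 °C, a difference of 1.34 ± 0.10 (adjusted p = 6.52e-16). Its median at 25 °C was under the floor of 1 TPM, so it is a member through its 18 °C libraries. Atf6 rose by 0.19 ± 0.06 (adjusted p = 0.0105). Both members kept their call within each replicate number (1.24 and 1.59 for X{}4240, 1.34 and 1.26 for mdg1{}2516 in replicates 1 and 2).

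**Figure D2:**
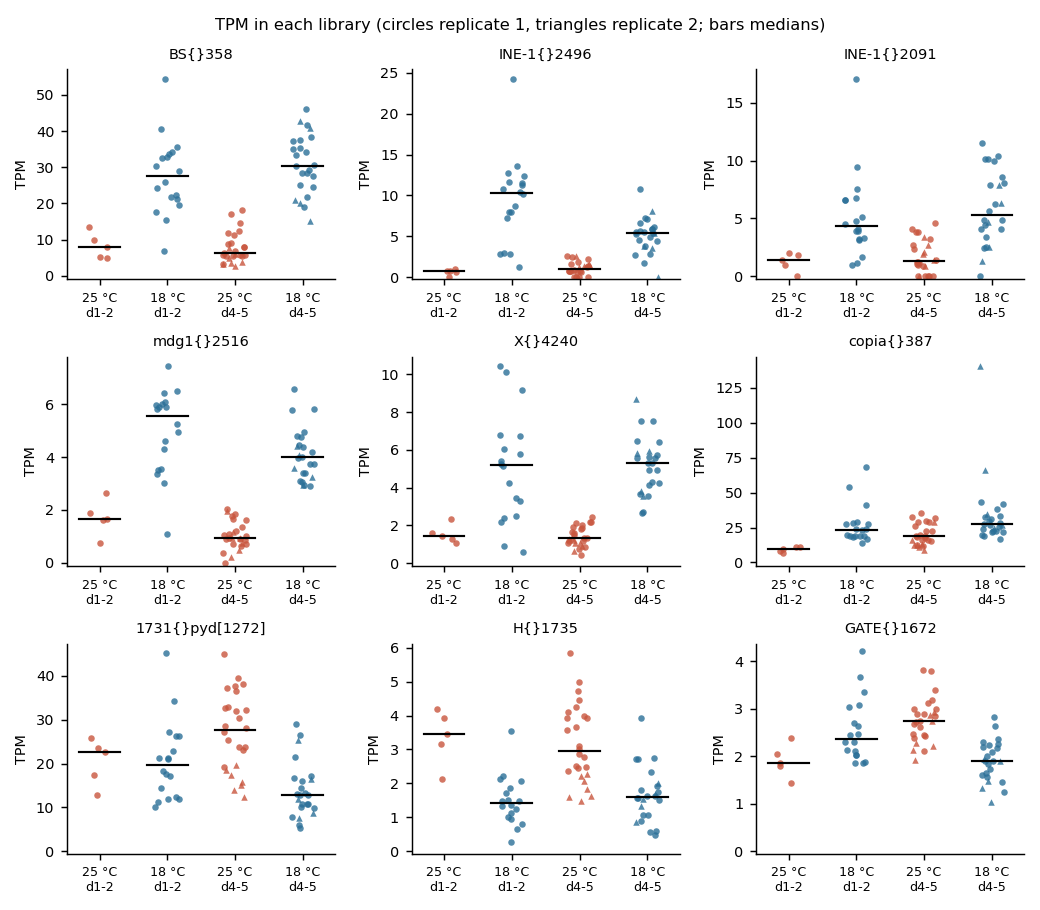
TPM of 9 insertions in each library, with 25 °C in red and 18 °C in blue, days 1-2 and days 4-5 side by side, circles for replicate 1, triangles for replicate 2 and bars for medians. X{}4240 and mdg1{}2516 do not overlap between temperatures on days 4-5, and the 25 °C libraries of 1731{}pyd[1272] on days 4-5 have medians of 31.9 TPM in replicate 1 and 15.8 TPM in replicate 2.

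Among the highest members, Doc{}CHKov1[Doc1420] was also higher at 18 °C. This Doc copy of 4516 bases on chromosome 3R (25324412 to 25328927) lies within CHKov1, a gene known in flies for an insertion allele that truncates its transcript. Its median was 12.7 TPM at 25 °C (7.84 to 22.2) and 17.7 TPM at 18 °C (10.1 to 25.4), and it was higher in 23 of 24 pairs (0.50 ± 0.08, adjusted p = 2.89e-06). CHKov1 was higher at 18 °C as well, with medians of 16.96 and 27.4 TPM (0.70 ± 0.09, adjusted p = 1.05e-08). The other 4 abundant members without a temperature call were accord{}818 (-0.07), INE-1{}5914 (0.01), INE-1{}5918 (0.11) and rooA{}1506 (0.15), with adjusted p from 0.289 to 0.948. For rooA{}1506 the difference passed the test in replicate 1 alone (0.34, adjusted p = 0.0145) and without the libraries with high eggshell or gut sums (0.39, adjusted p = 0.00508), and it was -0.56 in replicate 2 alone (adjusted p = 0.203).

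Of the 19 members that were lower at 18 °C, 3 had the same direction in at least 22 of 24 pairs. The first, 1731{}pyd[1272], is an LTR retrotransposon copy of 4648 bases in an intron of pyd, a junction scaffold gene on chromosome 3R (8898777 to 8903424), on the opposite strand. It had 12.4 to 44.9 TPM (median 27.6) at 25 °C and 5.32 to 29.1 TPM (median 12.9) at 18 °C, a difference of -0.94 ± 0.15 (adjusted p = 9.08e-07), while pyd differed by 0.11 ± 0.09 (adjusted p = 0.308). At 25 °C its libraries differed by replicate number, with 19.1 to 44.9 TPM (median 31.9) in replicate 1 and 12.4 to 19.8 TPM (median 15.8) in replicate 2, ranges that overlapped little. The difference was -1.19 in replicate 1 and -0.31 in replicate 2 (adjusted p = 0.548).

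H{}1735, a hobo copy of 778 bases on chromosome 3R (7090364 to 7091141), had medians of 2.94 TPM at 25 °C and 1.60 TPM at 18 °C (-0.64 ± 0.11, adjusted p = 8.08e-06). Its 25 °C libraries were also higher in replicate 1 (2.35 to 5.84 TPM) than in replicate 2 (1.47 to 2.28 TPM), and the difference in replicate 2 alone was -0.21 (adjusted p = 0.545). GATE{}1672, an LTR retrotransposon copy of 5147 bases on arm 2R, had medians of 2.75 TPM at 25 °C and 1.90 TPM at 18 °C (-0.38 ± 0.06, adjusted p = 2.14e-06), with -0.45 in replicate 2 alone (adjusted p = 0.155).

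Counts by class are a description, and the difference between classes was not tested. Among non-LTR retrotransposons 14 were higher and 3 lower (median 0.17), among DNA transposons 18 were higher and 4 lower (median 0.13), and among LTR retrotransposons 13 were higher and 12 lower (median -0.07). All 6 copia members were higher at 18 °C (0.51 to 0.81), as were all 3 Doc members (0.35 to 0.50), 4 of 6 Cr1a members and 3 of 4 Tc1-2 members, whereas 2 of 3 F members were lower and none of the 3 HB members passed. Near-identical copies of 1 family can share reads, so copies within a family are not independent of each other. The 6 copia members are also among the 13 LTR retrotransposons that were higher. Of the 39 INE-1 copies, 6 were higher, 2 lower and 31 did not pass.

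By position, 23 of the 49 intergenic members were higher and 8 lower (median 0.27), against 14 and 10 of the 76 intronic members (median 0.00) and 8 and 1 of the 20 exonic members (median 0.26). On chromosome 4, 17 of 47 members were higher and 4 lower (median 0.22), and the other features of that chromosome had 27 higher and 9 lower of 78 (median 0.11). Members of 4000 bases or longer, among them all 6 copia members, passed in 22 of 29 cases (15 higher and 7 lower). Members shorter than 500 bases passed in 8 of 47 (5 higher and 3 lower), and 48.5% of all features passed. The part of the number of reads per copy in these counts was not tested.

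**Figure D3:**
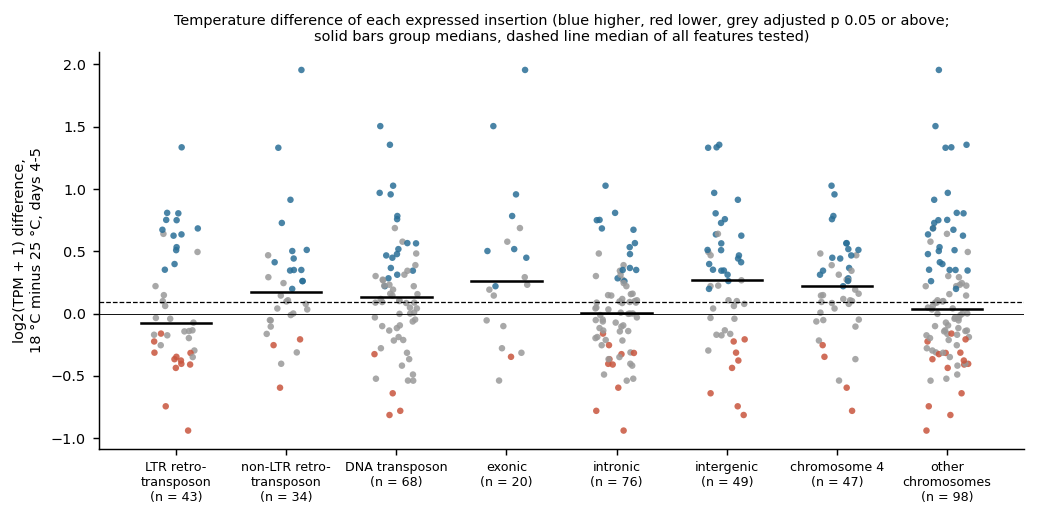
Log2(TPM + 1) difference, 18 °C minus 25 °C on days 4-5, of each member by class, position and chromosome, with blue for higher, red for lower and grey for an adjusted p of 0.05 or above. Solid bars are group medians and the dashed line is the median of all features tested (0.09). LTR retrotransposons show 12 red and 13 blue points.

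A member in a gene can be read from the host transcript, so the host was set beside it. There were 92 pairs of a member and an overlapping gene that was tested, with 86 members and 69 genes. In 30 pairs the member passed the test. The gene passed too in 16 of these, 14 in the same direction and 2 in the opposite direction, and did not pass in 14. The share of genes that passed, 53.3%, was near the 48.5% of all features. transib3{}1538 shares 940 of its 966 bases with exons at CR43361 and unc-13 on chromosome 4 (906135 to 907100). Exons of unc-13, on its own strand, hold 890 of these bases, and exons of CR43361, on the opposite strand, hold 372. The copy had medians of 2.61 and 6.03 TPM at 25 °C and 18 °C (0.96 ± 0.12, adjusted p = 2.61e-09), and CR43361 rose by 0.57 ± 0.08 (adjusted p = 1.72e-08). The change of unc-13 is not given here, and the libraries were not stranded. F{}5373, 449 bases in an intron of CG31999 on chromosome 4 (219149 to 219597), was lower (-0.59 ± 0.17, adjusted p = 0.0027), and so was CG31999 (-0.45 ± 0.09, adjusted p = 9.78e-05). Without the libraries with high eggshell or gut sums F{}5373 no longer passed (-0.45, adjusted p = 0.0567).

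Time of day was tested at each temperature by a 24 h cosine curve. No member passed at 25 °C or at 18 °C, against 4.0% and 1.16% of all features, and no member had a rhythm that differed between temperatures, against 0.334% of all features. At an unadjusted p under 0.05 there were 12, 13 and 10 members (8.28%, 8.97% and 6.90%), against 20.1% and 24.9% of all features for the rhythms at 25 °C and 18 °C and 1166 of 8972 features for their difference. The median fitted amplitude was not smaller in the members, at 0.17 and 0.21 at 25 °C and 18 °C against 0.11 and 0.18 over all features. A fitted amplitude is never below 0 and grows with noise, so these medians do not compare the strength of rhythms. The part of the members' low levels in the fewer calls was not tested. The smallest adjusted p at 25 °C was 0.0521, for transib3{}1538 (amplitude 0.44 ± 0.11 on the log2 scale, peak at ZT 14.96). For this copy it fell to 0.0324 after rescaling, to 0.0451 with the higher filter and to 0.0463 with the replicate block. With that block 2 members passed, and the smallest adjusted p, 0.0397, was that of another member. BS3{}2538 (amplitude 0.32, peak at ZT 10.8, adjusted p = 0.103) and 3S18{}3954 (amplitude 0.20, peak at ZT 16.2, adjusted p = 0.106) followed.

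At 18 °C the smallest values were those of 3S18{}35 (amplitude 0.44, peak at ZT 21.2, adjusted p = 0.0815), 3S18{}5563 (0.33, ZT 23.2, adjusted p = 0.097) and F{}5373 (0.58, ZT 21.5, adjusted p = 0.121). For 3S18{}35, an LTR retrotransposon copy of 6127 bases in introns on chromosome X (3415073 to 3421199), the curve at 25 °C peaked at ZT 14.7 and that at 18 °C at ZT 21.2. The difference of these rhythms had an adjusted p of 0.206, the smallest of the members, and of 0.0353 without the libraries with high eggshell or gut sums. F{}5373 and transib3{}1538 came next (adjusted p = 0.242 and 0.26).

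Days 1-2 show how soon the levels parted. BS{}358 had 6.95 TPM at the time of the shift (18 °C series, day 1 ZT00), 26.1 TPM 2 h later, and 15.4 to 54.5 TPM in the 17 libraries from 2 to 36 h. The 5 libraries held at 25 °C had 7.92, 5.04, 5.05, 9.77 and 13.5 TPM in order of time. None of them reached the lowest of those 17. The share of all features with such a gap was not computed, so how rare it is cannot be told. In the overlapping asRNA:CR46479 the same 18 °C libraries gave 5.38 TPM at the shift and 12.5 TPM after 2 h.

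INE-1{}2496 had 1.23 TPM at the shift, 10.8 TPM after 2 h and 24.2 TPM after 10 h, and 0, 0.73, 0.97, 0.65 and 0.72 TPM in the 5 libraries at 25 °C. CG13694 beside it had 1.95 TPM at the shift and 10.3 TPM after 2 h. mdg1{}2516 had 1.10 TPM at the shift and 4.59 TPM after 2 h, and 1.62, 0.77, 1.90, 2.63 and 1.64 TPM at 25 °C. All of these were above their 25 °C values in each 18 °C library from 2 h on. How many of all features are separated in this way from the 5 libraries at 25 °C was not computed.

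X{}4240 and INE-1{}2091 were more uneven. X{}4240 had 0.61 TPM at the shift, 2.49 TPM after 2 h, 0.88 TPM after 8 h and 10.1 TPM after 24 h, against 1.28, 1.42, 2.33, 1.62 and 1.08 TPM at 25 °C. INE-1{}2091 had 1.66 TPM at the shift, 9.41 TPM after 2 h, 1.01 TPM after 4 h and 17.02 TPM after 6 h, against 1.01, 0, 1.39, 1.82 and 2.06 TPM at 25 °C. Each time point after the shift is 1 library, so its spread is not known.

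**Figure D4:**
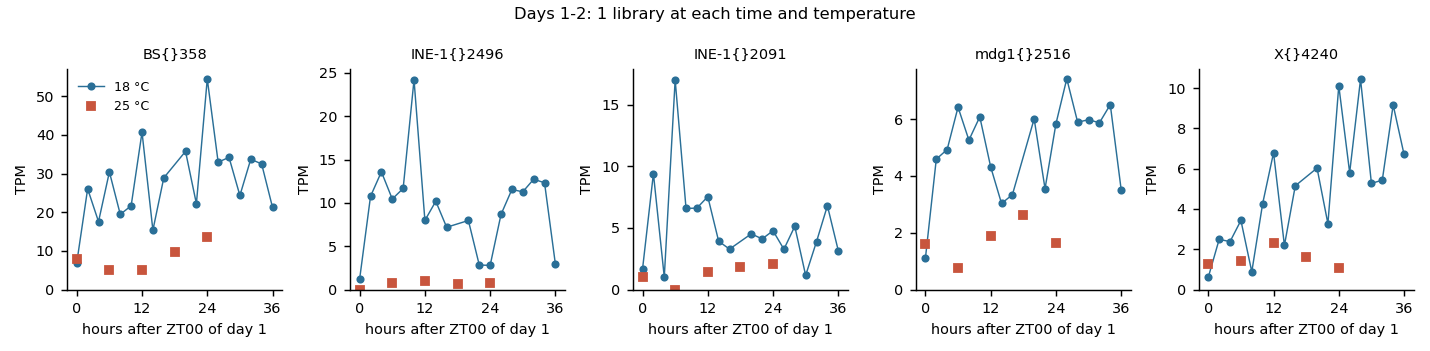
TPM of the 5 members with the largest differences against hours after ZT00 of day 1, the time of the shift, with 18 °C as joined blue points and 25 °C as red squares, 1 library at each point. BS{}358 goes from 6.95 TPM at 0 h to 26.1 TPM at 2 h at 18 °C and stays at or below 13.5 TPM at 25 °C.

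The 3 later time points sampled at both temperatures (day 1 ZT06 and ZT12, day 2 ZT00) allow a paired test in 6 libraries. By limma 0 members passed, as did 0.0% of all features, and 44 members (30.3%) had an unadjusted p under 0.05 against 1081 of 8972 features. The smallest adjusted p was 0.265, shared by BS{}358 (2.37 ± 0.30), gypsy{}615 (3.00 ± 0.40) and copia{}387 (1.84 ± 0.34). Leaving out day 1 ZT06 or day 2 ZT00 also gave 0 members. Leaving out day 1 ZT12 gave 7 members, these among them, and 215 of 8972 features, a fit that rests on 2 pairs of libraries. The median difference was 0.48 over the members, 116 of them above 0, and 0.17 over all features, and rescaling lowered these medians to 0.38 and -0.03.

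The series already differed in the libraries of day 1 ZT00. Whether the 18 °C library of that time had been at 18 °C at all is not stated in the sources used here. At that time point 99 of 145 members were higher in the 18 °C series (median difference 0.32), whereas all features had a median of 0.04. All 6 copia members were among them (median 0.73). Of the 5 members with the largest differences on days 4-5, 2 were higher at that time point (median -0.17), and all 5 were higher at 6 h (median 2.38). Each temperature on days 1-2 was 1 series of libraries, so a difference between series that does not come from temperature cannot be told apart from the period and temperature effects given next.

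The temperature effect was compared between periods at ZT00, ZT06 and ZT12. Taken with its sign (18 °C minus 25 °C), it was more positive on days 1-2 for 3 members and more negative for none. Over all features 1.06% were more positive and 0.312% more negative (1.37% in all). These were F{}5373 (2.22 ± 0.50, adjusted p = 0.0288), GATE{}1672 (0.93 ± 0.22, adjusted p = 0.0332) and INE-1{}3937 (1.35 ± 0.34, adjusted p = 0.0485). F{}5373 had 0.75, 0, 4.11, 2.74 and 3.05 TPM at 25 °C on days 1-2 against 0.72 to 7.67 TPM (median 3.20) at 18 °C, and medians of 3.44 and 1.94 TPM at 25 °C and 18 °C on days 4-5. INE-1{}3937, 594 bases on chromosome 4 (1125810 to 1126403) and 199 bases from CG11155, was listed at 0 in 3 of the 5 libraries at 25 °C. Leaving out 1 of the 25 °C libraries of days 1-2 left 0 members (day 1 ZT06) or 1 member (day 1 ZT12 or day 2 ZT00).

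GATE{}1672 changed its order between periods. It had 1.80, 2.04, 1.43, 2.39 and 1.86 TPM at 25 °C and a median of 2.37 TPM (1.85 to 4.21) at 18 °C on days 1-2, and medians of 2.75 and 1.90 TPM on days 4-5. The call held with an adjusted p of 0.0327 when the marker scores were covariates and was lost when any of the 3 libraries at 25 °C was left out (adjusted p from 0.0614 to 0.142).

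The members were chosen on days 4-5, which favours lower values on days 1-2, so the counts and medians between periods describe these libraries and are no test of the members. At constant 25 °C, 1 member was past the threshold as higher and 19 as lower on days 1-2 than on days 4-5, against 4.77% and 13.8% of all features (18.6% in all). The median difference was -0.28 over the members and -0.09 over all features. The age of the flies and the series changed together with the period. All 6 copia members were among the 19 (-0.99 to -0.77). The members named by rule were 3S18{}5563 (-0.55 ± 0.12), 1360{}1539 (-0.64 ± 0.15) and GATE{}2924, a copy in an intron of AGO3 (-0.43 ± 0.10). The medians of the germline and eggshell sums were highest in this group. With the marker scores as covariates 8 members passed, and 0 passed when the libraries with high sums were left out, which keeps 2 of the 5 libraries of days 1-2. Over all features 724 and 21 passed in these fits. Without day 1 ZT12 at 25 °C, 7 members passed, against 713 of all features. After rescaling, 15 members passed, and all features went from 428 higher and 1238 lower to 860 and 714.

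At 18 °C, 15 members were higher and 12 lower on days 1-2 than on days 4-5, against 5.96% and 20.3% of all features (26.3% in all). In replicate 1 alone, the number that all libraries of days 1-2 carry, 10 were higher and 20 lower, which turns the balance. Over all features these counts were 596 and 2197. After rescaling 21 members were higher and 7 lower, and all features went from 535 higher and 1822 lower to 1022 and 919. Without the libraries with high eggshell or gut sums 4 members were higher and 10 lower, against 354 and 665 of all features. The members named by rule were transib3{}1538 (-0.79 ± 0.13), mariner2{}1523 (-0.67 ± 0.14) and 1360{}1539 (-0.45 ± 0.10). mariner2{}1523 had a median of 1.13 TPM (0 to 2.47) on days 1-2 and 2.48 TPM (0.86 to 3.91) on days 4-5 at 18 °C. The largest increase was that of gypsy{}615 (1.37 ± 0.43), a copy of 7466 bases on arm 2R with 2.74 to 74.0 TPM (median 12.7) on days 1-2 and 0.49 to 135 TPM (median 3.72) on days 4-5.

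The copia copies show both contrasts together. copia{}387 had 7.09, 9.33, 7.87, 11.3 and 10.7 TPM at 25 °C on days 1-2, 13.96 to 68.2 TPM (median 23.4) at 18 °C on days 1-2, 8.94 to 35.3 TPM (median 18.6) at 25 °C on days 4-5 and 16.6 to 141 TPM (median 27.3) at 18 °C on days 4-5. The groups at 25 °C and 18 °C did not overlap on days 1-2 and overlapped on days 4-5. With 5 libraries at 25 °C on days 1-2 and 26 on days 4-5, the periods are not alike in this. The share of all features without overlap on days 1-2 was not computed. The gap on days 1-2 was present in the 18 °C library of day 1 ZT00, which had 16.5 TPM against at most 11.3 TPM at 25 °C. Its temperature difference on days 4-5 was 0.64 ± 0.16 (adjusted p = 0.00104), and its period difference at 25 °C, which rests in part on the same libraries, was -0.99 ± 0.25.

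The highest value, 141 TPM, came from the 18 °C library of replicate 2 at day 5 ZT06, which had an eggshell sum of 7270 TPM and in which 19 of the 145 members reached their highest level of days 4-5. Without that library the difference of copia{}387 was 0.55 (adjusted p = 0.0011), and it was 0.32 in replicate 1 and 1.59 in replicate 2. The counting divides reads among near-identical copies, so the level of 1 copia copy is less certain than that of the 6 together.

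**Figure D5:**
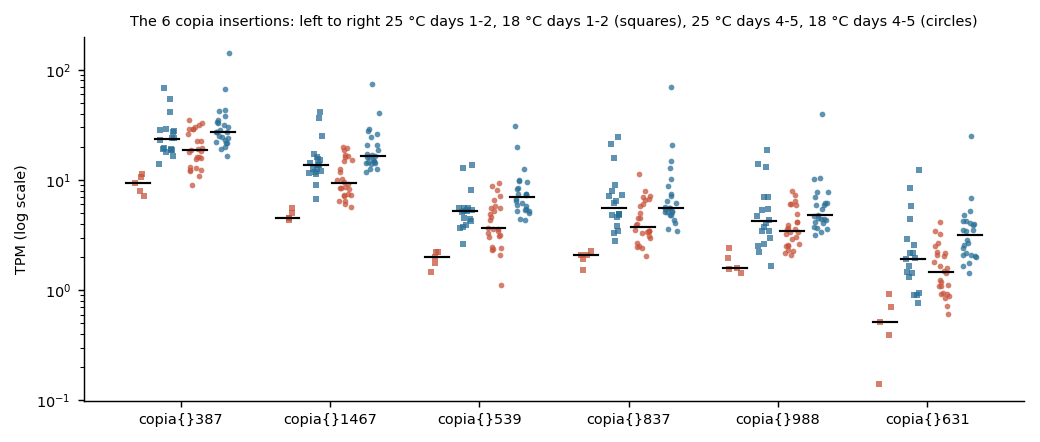
TPM of the 6 copia insertions on a log scale, each with 25 °C days 1-2, 18 °C days 1-2 (squares), 25 °C days 4-5 and 18 °C days 4-5 (circles) from left to right, red for 25 °C, blue for 18 °C and bars for medians. The median of the 25 °C libraries of days 1-2 is the lowest of the 4 for each copy, 7.09 to 11.3 TPM for copia{}387.

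Genes that silence transposable elements were read from the same fits. Of 43 such genes with a row, 31 were tested: 13 were higher and 4 lower at 18 °C on days 4-5 and 14 did not pass (median 0.26, against 0.09 over all features). These are 41.9% and 12.9% of the genes tested, against 33.7% and 14.8% of all features. Among the germline piRNA factors 4 of 7 tested were higher and 1 lower. The largest increases were those of mael (1.01 ± 0.28, adjusted p = 0.00216), a piRNA pathway gene, Boot (0.90 ± 0.27, adjusted p = 0.00573), which acts in export of piRNA precursors, and vas (0.89 ± 0.38, adjusted p = 0.0484), a germline helicase gene, at medians of 2.31, 3.71 and 3.67 TPM at 18 °C. Of the 13 higher genes, mael and nxf2 had medians under the floor at 25 °C (0.925 and 0.84 TPM). Both were thus tested through their 18 °C libraries. The germline markers moved the same way, with 5 of 9 tested higher and none lower (median 0.83). Their part in these increases was not tested.

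In the siRNA pathway 1 of 4 genes was higher and 2 were lower. The lower were r2d2 (-0.24 ± 0.06, adjusted p = 4.30e-04) and loqs (-0.22 ± 0.05, adjusted p = 4.79e-04), which encode partners of Dicer-2, and egg, a histone methyltransferase gene of the nuclear silencing list, was also lower (-0.21 ± 0.07, adjusted p = 0.0135). Among the 12 nuclear silencing and heterochromatin genes 5 were higher and 1 lower, and among the 8 tested follicle-cell and shared piRNA factors 3 were higher and none lower.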

How the data were processed

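The authors checked reads with FastQC, trimmed them, removed duplicate pairs, aligned them with STAR 2.7.10a to the Ensembl BDGP6 assembly, quantified features with RSEM without strand, and deposited TPM values for 73 poly(A) libraries, as their methods and the labels describe. By the study's account the step before removal of duplicates kept uniquely mapped reads, and RSEM divides reads that fit several copies, so levels of near-identical copies are uncertain. TPM keeps no read depth, so the depth behind each value is unknown here.

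Features with a median TPM above 1 over days 4-5 (8972), the floor that chose the members, were tested on log2(TPM + 1), which understates changes of low features. Temperature and period were tested with limma 3.58.1 (R 4.3.3, moderated test with a trend) with cosine and sine of ZT as covariates, and rhythms by the F-test of a 24 h harmonic regression. The 3 time points of days 1-2 were blocks, and the comparison of temperature effects between periods had ZT as a factor. Adjusted p values are Benjamini-Hochberg over all features, with a threshold of 0.05. The 18 °C library of day 1 ZT00 stayed out of these tests. Positions came from the Ensembl release of the same assembly given here, which held 5414 of 5416 insertions. An exonic member shares at least 1 base with an exon. Sequence features were not analysed here.

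Named insertions were the 8 highest, up to 5 a direction with the largest temperature difference among those that passed in the same direction in at least 22 of 24 matched pairs, the 3 smallest p of each other comparison, and 2 on each side of the floor. Named silencing genes were the 3 a direction with the largest difference that passed. Members and lists were chosen with earlier results of these data known. The labels do not say whether libraries of a group are separate cultures, so p values measure the spread between these pools. The fits were tested on simulated data. Alternatives changed the pseudocount, filter, scaling, marker covariates, block and libraries used.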

Additional observations from a re-analysis of the deposited data

Results flagged for a closer look

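Among the 25 insertions named by rule, the 5 libraries at 25 °C on days 1-2 were searched for a value far from the others, and chance gives such a value in about 1 of 20 groups. It was found for 3S18{}3954 alone. That copy had 6.50 TPM at day 1 ZT12 and 11.5 to 12.03 TPM in the other 4 libraries, a gap of 0.908 of the whole range. By a test of the difference itself, the temperature effect differed between days 1-2 and days 4-5 for F{}5373 (log2 difference 2.22), GATE{}1672 (0.93) and INE-1{}3937 (1.35). For each, the value of 18 °C minus 25 °C was more positive on days 1-2. On days 4-5 F{}5373 and GATE{}1672 were lower at 18 °C (-0.59 and -0.38), and INE-1{}3937 was higher (0.47).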

How the results depend on the processing

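Of 477 values of named insertions under an alternative, 36 lost and 9 gained significance. The sign changed for 7 values, 6 of them of insertions that had not passed the test (accord{}818, INE-1{}5914, INE-1{}5918 and rooA{}1506) and 1 of an insertion that had: 1360{}1539, higher at 18 °C by 0.22, ranged from -0.063 to 0.31 when a replicate number was left out, the lower value without replicate 1. With the filter of a median above 5 TPM, which leaves 45 members, 25 differed by temperature on days 4-5 (22 higher and 3 lower). Over the 7358 features of that filter, 2600 were higher and 1132 lower. Of the 45 members, 1 was rhythmic at 25 °C, 0 had a temperature effect that differed between periods, and 9 and 10 differed between periods at 25 °C and 18 °C. The features that passed were 371, 120, 1525 and 2214 in the same order. With no filter 1 and 17 members passed for temperature by period and for period at 18 °C, against 64 and 2009 of 17237 features. Rescaling gave 1 rhythmic member at 25 °C, against 516 of all features. Marker covariates gave 7 members for temperature by period and 8 for period at 25 °C, against 512 and 724 of all features. Without libraries of high eggshell or gut sums, an alternative chosen after the data were seen, 1 rhythm differed between temperatures, and 0 and 14 members differed between periods at 25 °C and 18 °C. Over all features these counts were 101, 21 and 1019. That alternative had too few libraries for temperature by period.

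Leaving out a replicate number, a time point or a library gave 9 to 67 members for temperature on days 4-5 (5 to 49 higher, 4 to 18 lower), 0 to 4 rhythmic at 18 °C, 0 to 7 for temperature on days 1-2, 0 to 1 for temperature by period, 7 to 28 for period at 25 °C and 28 to 30 for period at 18 °C. The 4 rhythmic members at 18 °C came from replicate 1 alone, where 943 of all features passed. Replicate numbers did not pair the libraries: over 24 matched pairs the correlation of deviations from the temperature means ran from -0.383 to 0.585 (median 0.0516), 10 of them above 0.1. With the replicate block 64 members differed by temperature on days 4-5, 2 were rhythmic at 25 °C and 5 passed for temperature by period, and with the 24 pairs as blocks 61 differed by temperature. Over all features these counts were 4432, 565, 218 and 4072. The read depth behind members near 1 TPM is unknown, and replicate 2 held 12 of the 50 libraries.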

Other observations

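Summed over all insertions in the table, the median was 984 TPM at 25 °C and 1242 TPM at 18 °C on days 4-5, and 794 and 1280 TPM on days 1-2. The 145 members carried medians of 581, 698, 483 and 694 TPM in the same order, and the other insertions each had a median at or below 1 TPM on days 4-5. The summed copia insertions had medians of 42.4, 69.6, 21.5 and 58.5 TPM.

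Single libraries held high sums of 1 family. Burdock, an LTR retrotransposon, summed to 226 TPM in the 18 °C library of replicate 1 at day 5 ZT00, and copia to 421 TPM in that of replicate 2 at day 5 ZT06. The 1360 insertions summed to 228 TPM in the 25 °C library of replicate 1 at day 5 ZT04 against a group median of 45.9 TPM. After the shift accord{}818 had 111 TPM at 12 h at 18 °C and 6.63 TPM at 24 h, and 15.3 to 20.4 TPM in the 5 libraries at 25 °C.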
